A study of Mus musculus with 12 samples.

Results

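The genes of the cytosolic ribosome were followed across 12 RNA libraries of the mouse hippocampus. The members are the protein-coding genes of the deposited table named as ribosomal proteins of the large subunit (Rpl), the small subunit (Rps), the stalk (Rplp0, Rplp1, Rplp2) or Rpsa. This rule found 84 of the 78298 genes listed, 51 of the large subunit and 33 of the small subunit. All libraries came from the hippocampus of male C57BL/6 mice, and poly(A) RNA was sequenced. The 4 Control libraries are from mice that were not stressed and received saline. The 4 Model libraries are from mice that were also given saline but were exposed for 28 days to chronic unpredictable mild stress, in which mild stressors alternate. The 4 Treatment libraries are from mice under the same 28 days of stress with poricoic acid A, a fungal triterpenoid, given by mouth each day over 14 of them at 20 mg/kg. No group received the compound without stress. The labels give 4 per group without saying that each library is a separate animal, so p-values measure the spread between these libraries.

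A cytosolic ribosome is built from ribosomal RNA and a fixed set of proteins, each present once per ribosome apart from the paired stalk proteins. Cells make these proteins in matched amounts. Their mRNAs are short, abundant and mostly begin with a run of pyrimidines, the 5′ terminal oligopyrimidine or TOP motif, through which the mTOR kinase controls their translation. In neurons, synaptic plasticity depends on protein synthesis, which makes this set of interest in a stress model. Levels of mRNA, as measured here, do not report on translation.

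Library totals were 17083260 to 27479083 estimated counts, and edgeR tested the 18600 genes left by its filter on low counts. Of the 84 members, 81 passed the filter. The other 3 are paralogs that were nearly or fully undetected: Rpl3l had 38 counts over all 12 libraries, Rpl39l had 8 and Rpl10l had 0. Defining hippocampal markers were present: the 18 markers of hippocampal neurons summed to between 6579 and 8656 CPM (counts scaled by library size) in every library, and none was at 0. Processed pseudogenes named for members, 321 in all, held 0.450% (Control replicate 3) to 0.589% (Treatment replicate 2) of the members' counts.

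Levels were compared between genes as deposited FPKM, which is scaled by length. The members had a median of 242 FPKM over the means of the 81 genes, and 70 of them lay between 100 and 500 FPKM. Rpl13a, a large-subunit protein, stood highest with a mean of 925 FPKM and a range over libraries of 771 to 1113. The stalk protein Rplp1, which helps recruit elongation factors, followed with 772 FPKM. The small-subunit genes Rps24 and Rps15 had 681 and 664 FPKM, and Rpl23a, at the exit of the nascent chain, had 523. The ranges of Rplp1 (642 to 871), Rps24 (633 to 734) and Rps15 (575 to 861) overlapped. Within every library Rplp1 stood above the other genes of this trio, while the order of Rps24 and Rps15 differed between libraries.

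At the other end, 6 members lay below 100 FPKM. These were Rps20 (68.6 FPKM), Rpl22l1 (54.0), Rpl39 (53.1), Rps27l (22.4), Rpl7l1 (17.9) and Rps4l (14.9). Of these, 4 are paralogs of a more abundant member. The ranges of Rpl22l1 (41.6 to 68.8 FPKM) and Rpl39 (34.4 to 71.3) overlapped, as did those of Rpl7l1 (14.4 to 25.4) and Rps4l (9.49 to 20.5). Stalk levels were uneven: Rplp0, the base of the stalk, had 176 FPKM and Rplp2 had 131, both below Rplp1. Rpsa, also known as the laminin receptor precursor, had 228 FPKM.

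**Figure D1:**
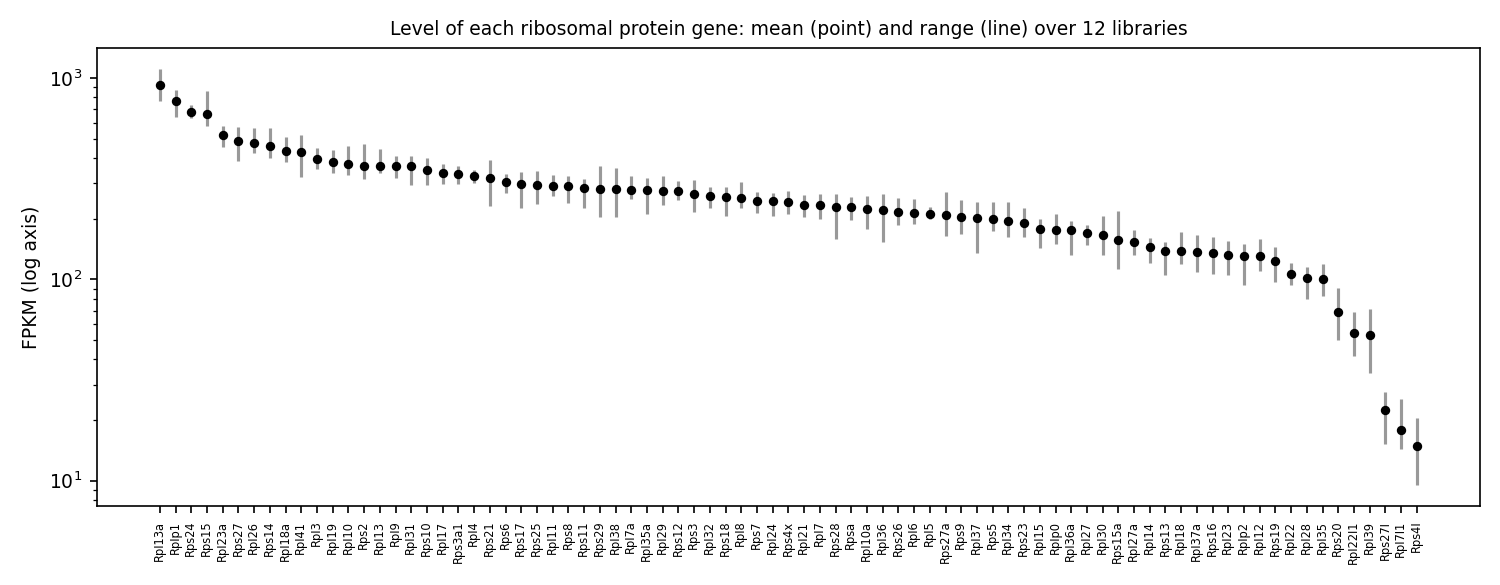
Level of each of the 81 ribosomal protein genes that passed the count filter, as deposited FPKM on a log axis; points are means and lines the range over 12 libraries. Most genes lie between 100 and 500 FPKM, with Rpl13a highest at 925 and the paralogs Rps27l, Rpl7l1 and Rps4l lowest.

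Paralogs took very different shares of their pair. Rpl22l1 made up 33.8% of the summed FPKM of Rpl22 and Rpl22l1, a pair of RNA-binding large-subunit proteins. Its share was 33.78% ± 2.44 in Control, 36.31% ± 3.03 in Model and 30.96% ± 2.05 in Treatment (SD, n = 4 each). Rpl7l1 made up 7.13% of its pair with Rpl7, Rps4l 5.81% of its pair with Rps4x, and Rps27l 4.40% of its pair with Rps27. Rpl39l was at 0.137% of its pair and Rpl3l at 0.0445%, both from a handful of reads. Rpl3l and the retrogenes Rpl10l and Rpl39l are known as muscle and testis forms. Reads shared between near-identical copies may have been split between them by the estimated counts, so these shares are uncertain.

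Promoter windows in RefSeq (build GRCm38.p6) run from 250 bases before to 50 after each listed start, and 63 of the 84 members matched. A run of 8 or more C or T on the transcribed strand, the letter pattern of a TOP tract, was looked for from 20 bases before to 50 after the start. It occurred in 50 of 75 member windows (66.7%) and in 8332 of all 32851 windows (25.4%). On either strand of the 300 bases, CCGGAAG, the core of ETS-family sites, was in 36% of member windows and 8.86% of all. AAGATGGC, a core of YY1 sites, was in 10.7% and 2.75%, GGGCGG, the SP1 core, in 60% and 35.7%, and TATAAA in 9.33% and 13.6%. The GGGCGG and CCGGAAG matches were counted separately and were not checked for overlap. These matches describe the letters only.

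The stretches below show the run in genes whose values are described further on: the called gene, short and long members, an abundant member and 3 paralogs. Capitals mark the longest run of C or T within the stretch searched, and Rpl7l1 had none there. Rps27l has a run of the same length just before its capitals, which begins upstream of that stretch.
Rpl39: gttcttccggtcccggCCTTTCTCTTCTCC
Rps27: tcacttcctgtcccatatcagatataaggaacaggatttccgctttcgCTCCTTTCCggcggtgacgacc
Rpl38: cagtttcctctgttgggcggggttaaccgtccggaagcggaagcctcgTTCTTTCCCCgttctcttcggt
Rpl13a: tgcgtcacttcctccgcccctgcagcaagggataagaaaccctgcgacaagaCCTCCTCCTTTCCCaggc
Rpl4: agaggagcgtggCCTTCTCCTCTCCCCgtc
Rpl22l1: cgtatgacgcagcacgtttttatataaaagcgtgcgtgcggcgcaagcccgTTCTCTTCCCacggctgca
Rps27l: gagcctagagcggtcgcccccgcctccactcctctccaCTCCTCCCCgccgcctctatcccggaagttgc
Rpl7l1: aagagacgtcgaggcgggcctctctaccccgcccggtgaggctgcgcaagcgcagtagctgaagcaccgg
In GRCm38.p6 these lie at chrX:37085173-37085202 (minus strand, Rpl39), chr3:90213629-90213698 (minus, Rps27), chr11:114668530-114668599 (plus, Rpl38), chr7:45128726-45128795 (minus, Rpl13a) and chr9:64173401-64173430 (plus, Rpl4). The paralogs lie at chr3:28805458-28805527 (plus, Rpl22l1), chr9:66946036-66946105 (plus, Rps27l) and chr17:46782637-46782706 (minus, Rpl7l1). The run of Rpl39 is 14 letters long and reaches the end of the window, as counted from a listed start upstream of it, and that of Rpl4 is 15 letters long. The 47 tested members with a run had median log2 fold changes of -0.125 (Model minus Control), -0.0718 (Treatment minus Model) and -0.18 (Treatment minus Control). The 13 without had -0.0904, -0.103 and -0.213, so the order of the medians differed between comparisons.

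Before the comparisons, a property of the libraries that touches them has to be given. Dividing an estimated count by its FPKM gives the length that the deposited scaling used in that library, and for short genes this length differed between libraries. For the 10 shortest members it was 97.3% to 103% of the Control mean in the Control libraries, 106% and 103% in Model replicates 1 and 2, and 103% in Treatment replicate 4. In Model replicates 3 and 4 it was 86.7% and 83.0%, and in Treatment replicates 1, 2 and 3 it was 89.5%, 83.3% and 80.1%. For Rpl38, for example, it ran from 94.3 bases (Treatment replicate 3) to 128 (Model replicate 1). A shorter implied length means that short genes were given fewer counts for the same FPKM. CPM values do not take this up and FPKM does, so both are given, and a second edgeR fit used the length of each gene in each library as an offset. The property falls unevenly on the groups: 0 of 4 Control, 2 of 4 Model and 3 of 4 Treatment libraries had a value below 90%. The 10 longest members averaged 98.2% to 103% of the Control mean, but the offset also takes up differences in single long genes. Between Treatment and Model, the long Rpsa had a log2 fold change of 0.13 without the offset and -0.02 with it.

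The members together held 1.09%, 1.04%, 1.00% and 1.03% of all estimated counts in Control replicates 1 to 4. The Model replicates had 1.00%, 0.965%, 0.935% and 0.912%, and the Treatment replicates 0.833%, 0.870%, 1.01% and 0.992%. The group means were 1.04% ± 0.0359, 0.954% ± 0.0399 and 0.926% ± 0.0877 (SD, n = 4 each). Counting error was small beside these gaps, with a Wilson 95% interval of 0.866% to 0.874% in Treatment replicate 2. Such intervals cover counting error only. Of the Model libraries, 3 of 4 lay below every Control library, and the Treatment libraries split, with replicates 1 and 2 lowest of all 12 and replicates 3 and 4 within the range of the other groups. In summed FPKM the share was 3.94% ± 0.0943 in Control, 3.78% ± 0.0759 in Model and 3.67% ± 0.260 in Treatment. Treatment replicates 1 and 2 were again lowest, with 3.37% and 3.59%, against 3.69% to 4.05% in the other 10 libraries. In bulk tissue, less RNA per cell and fewer cells of a type cannot be told apart.

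**Figure D2:**
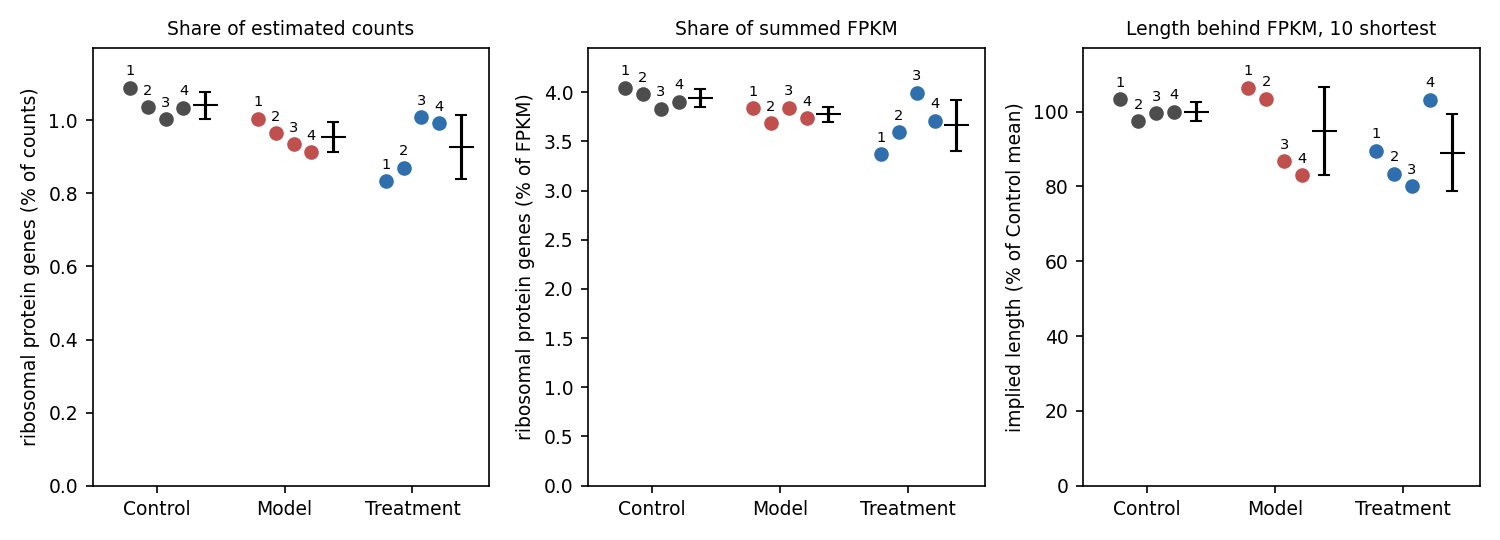
Ribosomal protein genes as a share of estimated counts (left) and of summed FPKM (middle), and the implied length of the 10 shortest members as a percent of the Control mean (right), by group. Numbered points are libraries and bars the mean ± SD of 4. Treatment replicates 1 and 2 have the lowest shares on both scales (0.833% and 0.870% of counts), and 5 libraries have implied lengths below 90%.

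Most members moved together from library to library. Of the 81 genes, 76 had their lowest CPM in Treatment replicate 1 or 2 (54 and 22 genes), and 52 had their highest CPM in a Control library, 41 of them in Control replicate 1. In FPKM the lowest value was in Treatment replicate 1 or 2 for 68 genes. The same counts were not taken over all genes. With group means removed, Rpl31 (r = 0.981 with the mean of the other members), Rpl36 (0.980) and Rpl13a (0.973) followed the rest most closely over the 12 libraries. Rpl7l1 (r = -0.0253), Rps15a (0.122) and Rps4l (0.256) followed the rest least. Abundant members such as Rps2 (0.292), Rpl10 (0.507) and Rps14 (0.539) also followed the rest less closely. Outside the members, the 5 genes most like their mean were Ndufb11 (r = 0.977), Cox6b1 (0.976), Uqcr10 (0.969), Timm8b (0.968) and Bex2 (0.968). These encode mitochondrial proteins, apart from Bex2. They were among 64 of 18519 genes with r over 0.9. The libraries share their depth, scaling and length property in all these correlations, which are descriptions.

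**Figure D3:**
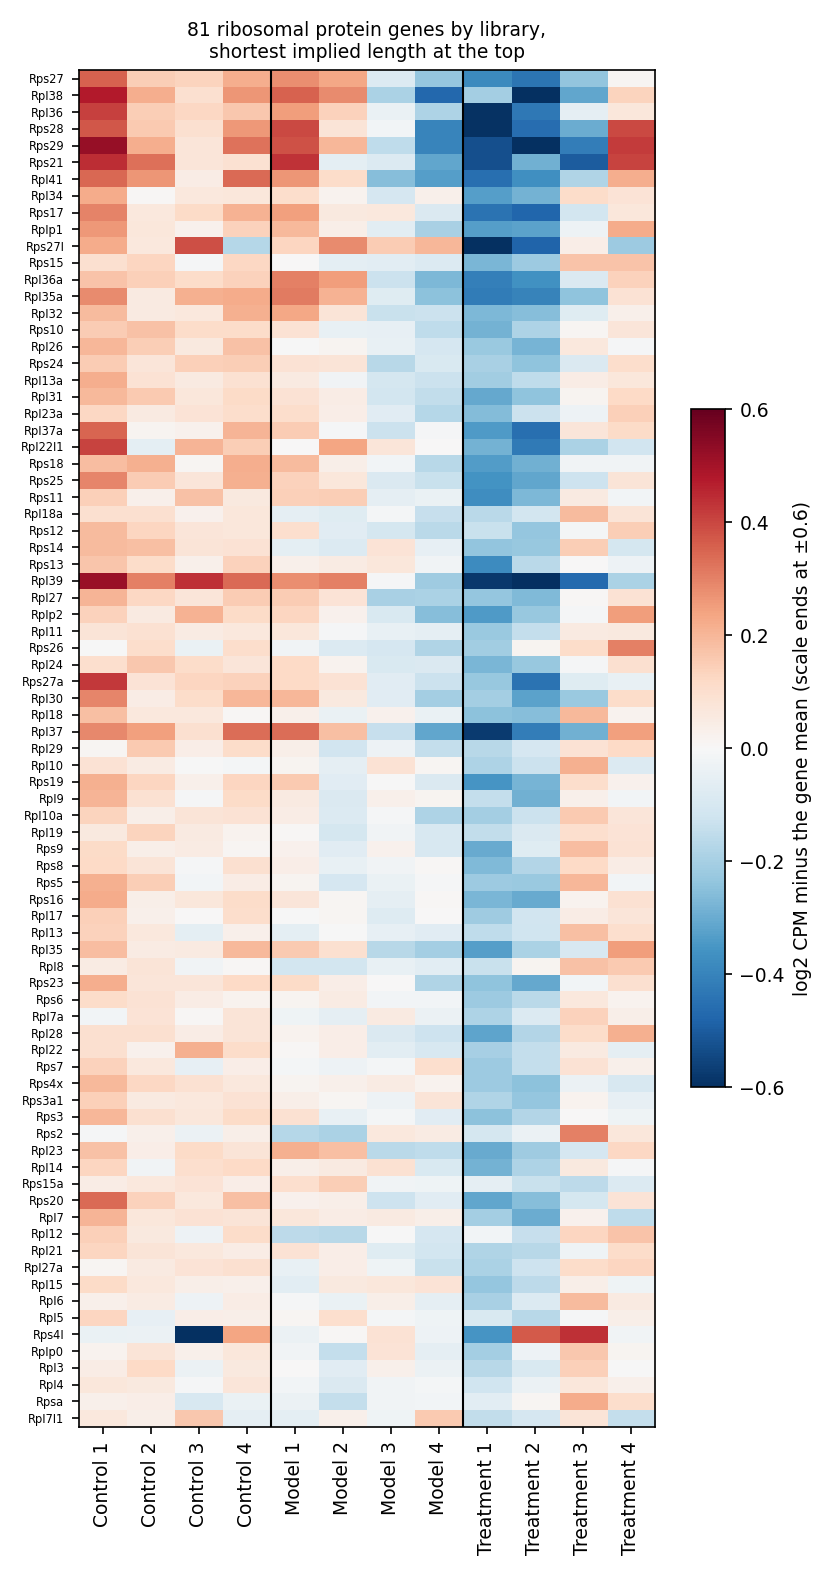
Log2 CPM of the 81 ribosomal protein genes in 12 libraries, each gene centred on its own mean, with the shortest implied length at the top; the colour scale ends at ±0.6. Treatment replicates 1 and 2 are low down most of the column, and the short genes at the top vary most.

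The comparison of Model with Control asks what stress did to these mRNAs. No member passed: 0 of 81 had an adjusted p under 0.05 in edgeR in either direction, against 0.452% of all tested genes that passed as lower. DESeq2, which called 1.78% of the genes it gave an adjusted p as lower, and limma-voom also called 0 members. At an unadjusted p under 0.05, 8 members were lower and 0 higher, where 7.85% of all genes were lower. The direction was nearly uniform: 79 of 81 members had a negative log2 fold change, against 52.7% of all genes tested. The median was -0.12, beside -0.01 over all genes. With a smooth trend on length removed in each library, 52 of 81 were negative and the median was -0.02. The 2 positive values belonged to the paralogs Rps4l (0.08) and Rps27l (0.06). The groups did not overlap, with Model lower, for 10 members, and for 5.46% of all genes.

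The smallest p belonged to Rps20, a protein of the small subunit's head that is ubiquitylated when ribosomes collide. It had 68.7, 59.7, 56.8 and 61.5 CPM in Control and 55.3, 55.6, 49.8 and 51.8 CPM in Model. Every Model library lay below every Control library, with a log2 fold change of -0.22 ± 0.08 (SE) and an edgeR adjusted p of 0.221. Rpl12, at the base of the stalk, had 105 to 118 CPM in Control and 95.5 to 107 in Model, which overlap. Its log2 fold change was -0.18 ± 0.07 and its adjusted p 0.231. Rpl26 (-0.18, adjusted p 0.233) and Rps10 (-0.17, adjusted p 0.271) did not overlap between groups, and Rpl13a (-0.16, adjusted p 0.273) did, all from edgeR. With the length of each gene in each library as an offset, Rpl26 had -0.12 ± 0.08, Rps10 -0.12 ± 0.08 and Rps20 -0.17 ± 0.10. Rpl12 (-0.21 ± 0.09) and Rpl13a (-0.20 ± 0.08) were further from zero in that fit than without offsets.

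Markers of other cells also differed between these groups. The 20 choroid plexus markers summed to 797 to 2585 CPM in Control and 667 to 958 in Model. All 20 were negative, with a median log2 fold change of -1.26, and 2 passed as lower. The 13 ependymal genes found of 14 listed summed to 52.5 to 68.3 CPM in Control and 44.3 to 72.1 in Model, and all 13 were negative with a median of -0.25. The 8 red blood cell genes summed to 524 to 652 CPM in Control and 432 to 553 in Model. Of the 7 tested, 6 were negative with a median of -0.50, and 1 passed as lower. The 14 markers of thalamus and habenula summed to 246 to 708 CPM in Control and 244 to 406 in Model, and 11 of 13 tested were negative with a median of -0.46. Of the 16 oligodendrocyte markers 14 were negative and 2 passed as lower. Of the microglial markers 13 of 15 were negative, and of the astrocyte markers 10 of 12. The other way went hippocampal neurons, with 16 of 18 markers positive and 1 passing as higher, and endothelium, with 9 of 14 positive and 1 passing as lower. No marker of these lists was at 0. Adjusted for the choroid plexus score, the members' median was -0.15, with 76 of 81 negative and 0 called, where 2 of all genes were called.

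The negative shift was larger in short genes. Across the 81 members the log2 fold change was higher in longer genes (Spearman correlation with implied length 0.563, a description across genes that share libraries). The 10 shortest members, Rps27 to Rplp1, had a median of -0.18 and the 10 longest, among them Rpl4, Rpl3 and Rpsa, a median of -0.04. With lengths per library as offsets, the correlation was 0.231, the members' median was -0.08, and 73 of 81 remained negative. In that fit 0 members passed, with 0.0699% of all genes passing as lower. With Model replicates 1 and 2 only, whose lengths were slightly above those of the Control libraries, the median was -0.06 and 0 members passed, beside 16 of all genes.

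The comparison of Treatment with Model asks what the compound did under stress. Only Rpl39 passed among the 81 members, and it fell. That is 1 gene lower, beside 0.704% of all genes that passed as lower, and 0 higher, beside 1.18% as higher. At an unadjusted p under 0.05, 12 members were lower, against 8.69% of all genes. The 1 higher was Rpl8, chosen here after its values were seen, with a log2 fold change of 0.14 ± 0.06 and an edgeR adjusted p of 0.259. Signs were mixed: 62 of 81 members were negative, against 49.6% of all genes, and the median was -0.08. For 5 members the Treatment libraries all lay below the Model libraries (4.36% of all genes): Rpl7, Rpl22l1, Rps4x, Rps15a and Rps27l.

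Rpl39 encodes a very small basic protein that lines the exit tunnel of the large subunit. Its gene (ENSMUSG00000079641) lies on chromosome X at 36346173 to 36349055 in GRCm39. In Control it had 25.5, 21.9, 24.1 and 22.5 CPM. The Model libraries had 21.6, 21.9, 17.7 and 15.4 CPM, and the Treatment libraries 11.9, 10.8, 12.9 and 15.6 CPM. Treatment replicate 4 was just above the lowest Model library, and every Treatment library lay below every Control library. In FPKM, the Control libraries had 62.6 to 71.3, the Model libraries 47.1 to 60.2 and the Treatment libraries 34.4 to 42.5, so that the 3 groups did not overlap. These values rest on 213 to 606 estimated counts per library. The named pseudogene of this gene was listed at 0 counts, so its reads were not divided with that copy. Copies listed under other names or without a symbol were not looked at.

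The log2 fold change of Rpl39 between Treatment and Model was -0.58 ± 0.12 (SE) with an edgeR adjusted p of 0.0317. Between Treatment and Control it was -0.87 ± 0.12 with an adjusted p of 0.0168. Between Model and Control it was -0.30 ± 0.12 with an adjusted p of 0.241, which did not pass. Each pair of these comparisons shares a group, so they are not independent. Among all 18600 genes Rpl39 ranked 3 by p between Treatment and Control and 161 between Treatment and Model. Its coefficient of variation over the 12 libraries, 27.4% in CPM and 23.8% in FPKM, was the highest of the 81 members on both scales.

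Genes of like length had smaller values than Rpl39. Its implied length was 354 bases, and the 10 members nearest to it in length (319 to 395 bases) had log2 fold changes of -0.35 to 0.02 between Treatment and Control, with a median of -0.21. Against Model they ran from -0.19 to 0.16 with a median of -0.05. With lengths per library as offsets, Rpl39 changed by -0.51 ± 0.11 between Treatment and Model (edgeR adjusted p 0.0416) and by -0.77 ± 0.11 between Treatment and Control (adjusted p 0.0181). It was again the only member that passed in either, where 0.339% and 0.0269% of all genes passed as lower. Within Model replicates 3 and 4 and Treatment replicates 1 to 3, which share the shorter lengths, its log2 fold change was -0.48 ± 0.14 and its adjusted p 0.474. In that fit 0 of all genes passed.

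The call was not stable to single libraries, although the direction held. Between Treatment and Model the adjusted p rose above the threshold without Model replicate 1 (0.0572), Model replicate 2 (0.117), Model replicate 3 (0.0809), Treatment replicate 1 (0.0533) or Treatment replicate 2 (0.0816) in edgeR. In these fits 310, 0, 0, 333 and 52 of all genes passed, in the order given, against 350 with all libraries. Between Treatment and Control the call of Rpl39 was lost without Control replicate 1 (0.0675), Control replicate 3 (0.0915) or Treatment replicate 1 (0.0519). There 0, 1 and 5 of all genes passed, against 19 with all libraries, so calls fell over all genes as well. Over all alternatives the log2 fold change of Rpl39 stayed between -0.69 and -0.47 in the first and between -0.98 and -0.68 in the second. Without Treatment replicate 3, 4 members passed in either comparison, Rpl39, Rpl7 and Rps4x in both, with Rps27l against Model and Rps14 against Control. In that fit 0.93% of all genes passed as lower against Model and 0.131% against Control. Leaving out Treatment replicates 2 and 3 together, whose library numbers stand apart in the labels, gave -0.47 (adjusted p 0.156) and -0.77 (called).

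Markers of cell types, those of hippocampal neurons included, moved with the Treatment group. The 15 neocortical markers found of 16 listed summed to 643 to 791 CPM in Treatment, 548 to 630 in Model and 511 to 626 in Control. The 14 endothelial markers summed to 314 to 362 CPM in Treatment, 277 to 302 in Model and 272 to 304 in Control. The 15 markers of dentate granule cells summed to 883 to 977 CPM in Treatment, 1092 to 1304 in Model and 999 to 1166 in Control. Against Model, all 15 of these were negative with a median log2 fold change of -0.30, and 5 passed as lower. Of the neocortical markers 13 were positive and 3 passed as higher, and of the endothelial markers all 14 were positive and 2 passed. Of the 18 markers of hippocampal neurons 16 were negative with a median of -0.26, and 3 passed as lower. Over all genes 0.704% passed as lower and 1.18% as higher. No marker of these lists was at 0. With the neocortical score as a covariate, Rpl39 had a log2 fold change of -0.67 ± 0.20 between Treatment and Model and -0.95 ± 0.18 between Treatment and Control. Neither passed then (edgeR adjusted p 0.594 and 0.430), and 0 of all genes passed in either comparison of that fit. The choroid plexus markers summed to 525 to 1595 CPM in Treatment, and all 20 were negative against Control, with a median of -1.05. The ependymal genes summed to 26.9 to 57.0 CPM in Treatment, with all 13 negative and a median of -0.63. Adjusted for the choroid plexus score, Rpl39 had -0.98 ± 0.17 between Treatment and Control and did not pass (edgeR adjusted p 0.186). In that comparison 0 of all genes passed. Between Treatment and Model Rpl39 had -0.57 ± 0.12 and still passed (adjusted p 0.0349), where 370 of all genes passed.

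**Figure D4:**
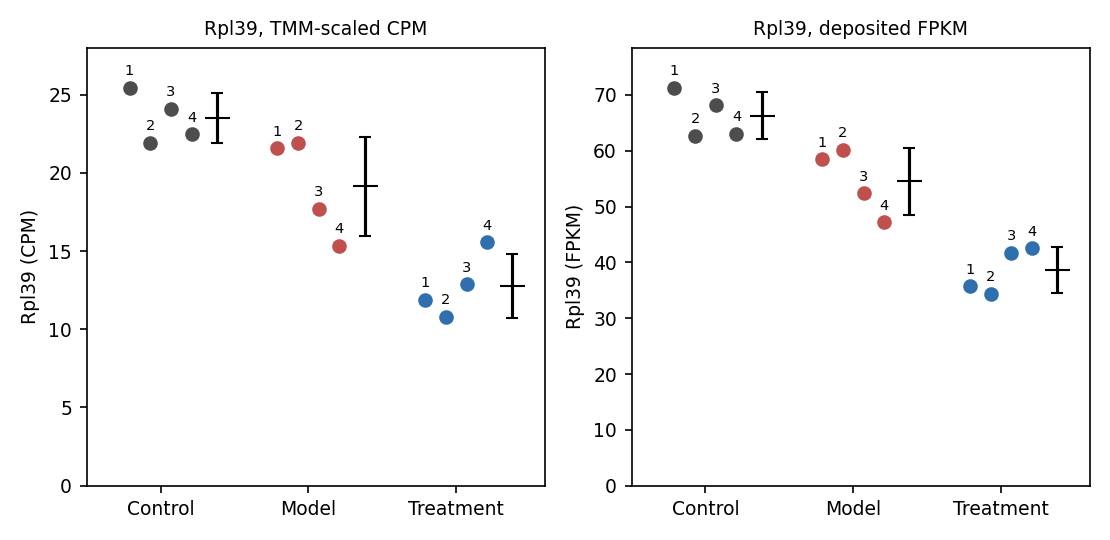
Rpl39 in each library by group, as TMM-scaled CPM (left) and deposited FPKM (right). Numbered points are libraries and bars the mean ± SD of 4; in CPM the Treatment libraries (10.8 to 15.6) lie below all Control libraries (21.9 to 25.5) and just overlap the Model libraries, and in FPKM the groups do not overlap.

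The 5 members next to Rpl39 by p did not pass. Rpl22l1, the paralog of Rpl22, had 15.9 to 18.7 CPM in Model and 11.9 to 14.7 in Treatment, with no overlap and a log2 fold change of -0.32 ± 0.10 (edgeR adjusted p 0.106). Rpl7 had 195 to 200 CPM in Model and 155 to 194 in Treatment (-0.20 ± 0.06, edgeR adjusted p 0.107). Rps4x, the X-linked form of its family, had 173 to 176 CPM in Model and 144 to 167 in Treatment (-0.17 ± 0.06, edgeR adjusted p 0.111). Rps27l, a p53-responsive paralog of Rps27, had 5.65 to 6.28 CPM in Model and 3.38 to 5.30 in Treatment (-0.48 ± 0.16, edgeR adjusted p 0.112). Rps15a had 116 to 130 CPM in Model and 105 to 113 in Treatment (-0.16 ± 0.05, edgeR adjusted p 0.126). With lengths as offsets Rps15a had -0.36 ± 0.16 and did not pass either (adjusted p 0.263). DESeq2 called 4 members as lower, namely Rpl39, Rpl7, Rps4x and Rps15a, where it called 3.96% of the genes with an adjusted p as lower. Without a count filter edgeR called 5, beside 1.12%, and with a smooth trend on length removed it called 3, beside 1.25%.

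Paralogs and their pairs were set side by side in this comparison. The log2 fold change was -0.06 ± 0.06 for Rpl22 beside -0.32 for Rpl22l1, and -0.31 ± 0.11 for Rps27 beside -0.48 for Rps27l. It was -0.20 for Rpl7 beside -0.10 ± 0.07 for Rpl7l1, and -0.17 for Rps4x beside 0.13 ± 0.17 for Rps4l. With lengths as offsets Rpl7l1 had -0.34 ± 0.13 beside -0.17 ± 0.07 for Rpl7, which turns the order of that pair, and Rpl22 had 0.01 ± 0.07. The difference within a pair was not tested. Rps4l had 10.2 to 18.4 CPM in Control, 15.3 to 16.6 in Model and 12.3 to 21.2 in Treatment, and its sign turned without Treatment replicates 2 and 3 (-0.18).

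Short genes again had the more negative values. In this comparison the Spearman correlation with implied length was 0.463, the 10 shortest members had a median of -0.24 with all 10 negative, and the 10 longest a median of 0.02 with 6 positive. With lengths as offsets the correlation was 0.245 and the members' median -0.04, with 50 of 81 negative. With the smooth trend on length removed the median was also -0.04, with 58 of 81 negative. The libraries that share shorter lengths gave a median of -0.08. Without Treatment replicate 1 the median was -0.03 and without Treatment replicate 2 it was -0.04, and it was -0.13 without Treatment replicate 3 and without Treatment replicate 4.

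**Figure D5:**
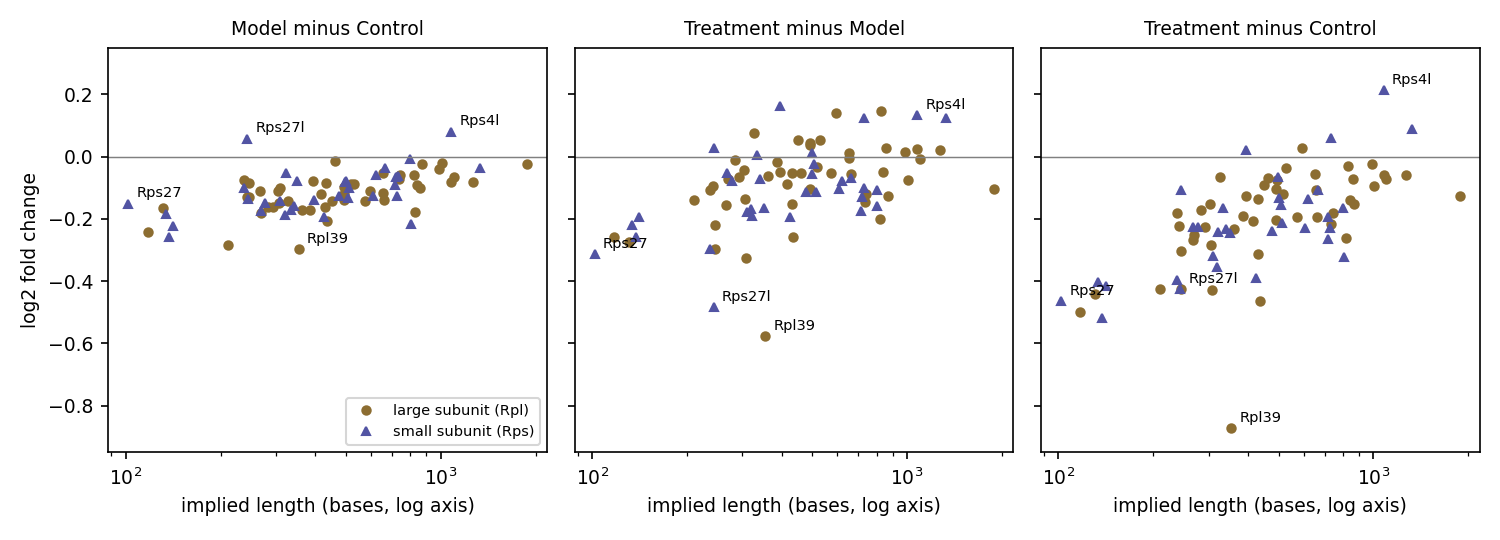
Log2 fold change of each of the 81 ribosomal protein genes against its implied length (log axis) in the 3 comparisons; circles are large-subunit and triangles small-subunit genes. Longer genes have higher values in each panel (Spearman correlations 0.563, 0.463 and 0.638), and Rpl39 lies apart below genes of its length in both panels with Treatment.

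Treatment and Control differ by both stress and compound. Rpl39 alone passed among 81 members, as 1 gene lower beside 0.0376% of all genes that passed as lower. At an unadjusted p under 0.05, 46 members were lower and 0 higher, where 6.56% of all genes were lower. The log2 fold change was negative in 76 of 81 members, against 52.1% of all genes, and the median was -0.19. The 5 positive members were Rpl8, Rps2, Rps26, Rps4l and Rpsa. With lengths as offsets Rpsa was negative (-0.09 ± 0.08, against 0.09 ± 0.06 without), while Rpl8, Rps2, Rps26 and Rps4l stayed positive. For 14 members every Treatment library lay below every Control library (3.24% of all genes). The call counts depended on the tool: DESeq2 called 14 members, all lower, beside 0.761% of genes with an adjusted p, and edgeR without a count filter called 22, all lower, beside 0.772%.

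After Rpl39 the smallest p belonged to Rps4x, with 178 to 195 CPM in Control and 144 to 167 in Treatment, which do not overlap. Its log2 fold change was -0.27 ± 0.06 and its edgeR adjusted p 0.0810. Rpl22l1 had 15.3 to 21.0 CPM in Control and 11.9 to 14.7 in Treatment (-0.43 ± 0.10, edgeR adjusted p 0.108). Rps27a, which encodes ubiquitin fused to a small-subunit protein, had 91.6 to 116 CPM in Control and 63.7 to 83.8 in Treatment (-0.39 ± 0.09, edgeR adjusted p 0.108). Rpl7 (-0.26 ± 0.06, edgeR adjusted p 0.108) and Rps27 (-0.46 ± 0.11, edgeR adjusted p 0.109) also did not overlap between groups. Rps27 is the shortest member, with an implied length of 102 bases. The 4 members on chromosome X, Rpl10, Rpl36a, Rpl39 and Rps4x, were all negative, with a median of -0.28. Over all members 76 of 81 were negative, with a median of -0.19. The 4 include Rpl39 and Rps4x, the members of smallest p.

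The members' shift between Treatment and Control shrank once length was taken up. The Spearman correlation with implied length was 0.638, the 10 shortest members had a median of -0.42 and the 10 longest -0.07. With lengths as offsets, the correlation was 0.287, the median -0.14, 70 of 81 were negative, and 21 members in place of 46 had an unadjusted p under 0.05 in the lower direction. The 10 shortest then had a median of -0.25. With the smooth trend on length removed, the median was -0.06 and 60 of 81 were negative. The large and the small subunit had medians of -0.18 (48 genes) and -0.23 (33 genes), and the stalk genes a median of -0.19, with none called.

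Other genes of the ribosome and of its making were read from fixed lists. Fau, which encodes a small-subunit protein fused to a ubiquitin-like domain, did not pass in any comparison. It had 66.9 ± 4.37 CPM in Control, 61.6 ± 2.95 in Model and 68.5 ± 8.46 in Treatment (SD, n = 4). Of the 78 mitochondrial ribosomal protein genes, which form a separate ribosome, 0 passed between Model and Control, with 39 negative and 39 positive. Between Treatment and Model 1 fell, Mrpl9 (-0.28 ± 0.07, edgeR adjusted p 0.0402), and 61 were negative, with a median of -0.07. Between Treatment and Control 0 passed and 54 were negative.

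Of 30 other TOP mRNAs, which encode translation factors and RNA-binding proteins, 0 passed between Model and Control or Treatment and Control. Between Treatment and Model 2 fell, the initiation factor subunit Eif3e (-0.35 ± 0.06, edgeR adjusted p 0.0199) and nucleophosmin, Npm1 (-0.26 ± 0.06, adjusted p 0.0479). Their medians were -0.01, -0.05 and -0.03 in these comparisons. Npm1 was also the only one of 50 ribosome biogenesis factors that passed in any comparison of this fit. With lengths as offsets Npm1 did not pass, and Polr1b, a subunit of RNA polymerase I named here after its values were seen, passed as lower between Model and Control (-0.70, adjusted p 0.0482, against -0.29 and 0.152 without offsets). Of 20 regulators of these mRNAs in the mTOR and Myc pathways, Rps6kb2, which encodes a kinase of ribosomal protein S6, fell between Model and Control (-0.41 ± 0.07, edgeR adjusted p 0.0212). It rose between Treatment and Model (0.39 ± 0.08, adjusted p 0.0229), and Mycl fell there (-0.30 ± 0.07, adjusted p 0.0416). Rps6kb2 had 27.4 ± 1.72 CPM in Control, 20.6 ± 1.78 in Model and 27.0 ± 1.27 in Treatment (SD, n = 4). Both of its comparisons use the Model libraries. These calls changed with single libraries left out. That of Eif3e was lost without Model replicate 2, Model replicate 3 or Treatment replicate 2, and so was the rise of Rps6kb2. In those fits 0, 0 and 52 of all genes passed, in the order given, against 350 with all libraries. The fall of Rps6kb2 was lost without Control replicate 1, 2 or 3 or Model replicate 2, 3 or 4. There 8, 8, 91, 21, 13 and 11 of all genes passed, against 147, so calls fell over all genes as well. Mycl passed only with Treatment replicate 3 left out, Npm1 without that or Control replicate 2, and Mrpl9 without that or Control replicate 3, among fits that left out a single library. Of the calls of Mrpl9, Eif3e, Npm1, Rps6kb2 and Mycl, only the rise of Rps6kb2 still passed with lengths as offsets (0.56).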

How the data were processed

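Hippocampal poly(A) RNA was sequenced in 12 libraries, whose 3 groups were read from the labels. Trim Galore 0.6.7 and cutadapt 3.4, Salmon 1.10.1, STAR 2.7.10a and FastQC 0.12.1 stand in the submitters' processing notes without roles, beside the builds GRCm39 and mm39. Annotation release and strand setting are not given in the sources used here. Per the file headers, the deposited values are unscaled estimated counts by gene and library, of which 28.8% of the nonzero ones are not whole within 1e-06, and FPKM, which the authors scaled for gene length and library total.

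Estimated counts were rounded. CPM is the estimated count scaled to a library size adjusted by TMM. In R 4.3.3, edgeR 4.0.16 (filterByExpr, TMM, quasi-likelihood, a mean for each group in 1 model of all libraries) tested 18600 genes, with Benjamini-Hochberg adjustment across them and a threshold of 0.05. SE comes from the fold change and its statistic. For correlations, log2 CPM had a prior count of 2. Implied length is the count divided by FPKM and library total. Library totals of 17083260 to 27479083 and a coefficient of variation between replicates of 10.7% set the precision.

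The members, lists and tests were chosen with earlier results of these data known. Named members were those that passed, the 6 of smallest p per comparison, the 5 highest and 5 lowest in FPKM, those failing the filter, paralog pairs, the stalk genes and Rpsa, and the 3 most and 3 least like the other members. Up to 4 called genes per list were named. A gene that this rule selects is left out here. Alternatives were other scalings (RLE, and TMM without these genes), DESeq2 1.42.0, limma-voom (limma 3.58.1), other filters, subsets of libraries, a replicate block, marker scores, loess trends, pseudogenes added, and log2 FPKM with pseudocounts of 0.1 and 1. Chosen after seeing the data were length offsets and libraries of one length range. The fits were also run on simulated data with known changes, and no result here rests on that run. Its length offset was the simulated effect itself, so it could not test the offsets used for these data. Figures used Python 3.11.15 and matplotlib 3.10.9.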

Additional observations from a re-analysis of the deposited data

Results flagged for a closer look

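In groups of 4 libraries, a library was set apart where its gap to the nearest other exceeded Dixon's 95% critical value as a part of the group's range, which chance gives in about 1 in 20 groups. Of 66 groups checked, Control replicate 1 met this for 2 genes. For Rpl7 it had 219.3 CPM, where the other 3 Control libraries had 199.6 to 202. For Rps27a it had 116.2 CPM, where the others had 91.6 to 95.3. Control replicate 1 also had the highest share of counts in these genes (1.09%).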

How the results depend on the processing

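Between Treatment and Model, 1 member passed in edgeR, beside 350 of all genes in either direction. The number was 4 in DESeq2 (1088 of all genes), 5 with no filter (1090) and 3 with the loess trend on length removed (499). It was 2 with GC content and length removed (237). With only the 8 libraries compared (137) or without both Treatment replicates 2 and 3 (132) it was 0. The neocortical score and the libraries of one length range also gave 0 members, and 0 of all genes. Between Treatment and Control 1 member passed (19 of all genes), with 14 in DESeq2 (430), 22 with no filter (748) and 2 without both Treatment replicates (130). The choroid plexus or neocortical score gave 0 members there, and 0 of all genes. Between Model and Control the number was 0 (147 of all genes), and 1 (Rpl41) with no filter (783). Leaving out single libraries gave 0 to 4 members in both comparisons with Treatment and 0 between Model and Control. Over all genes it gave 0 to 459 (Treatment minus Model), 0 to 73 (Treatment minus Control) and 8 to 273 (Model minus Control). The members' median stayed negative throughout: single libraries left out gave -0.15 to -0.09, -0.13 to -0.03 and -0.24 to -0.14 for stress alone, the compound under stress, and both against Control, and the loess trend on length moved them to -0.020, -0.045 and -0.062. Shares of counts without single libraries were 1.02% to 1.05% (Control), 0.937% to 0.968% (Model) and 0.898% to 0.957% (Treatment), and without mitochondrially encoded genes in the total 1.13% (Control) and 1.03% (Model). The cause of these changes was not tested, and the subsets also hold fewer libraries.

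Same-numbered libraries did not deviate together (correlations of -0.0404 to 0.111). With the replicate number as a block, 0, 1 and 1 members passed and medians were -0.12, -0.08 and -0.19, so no call of a member changed, while that of Npm1 was lost. Of 34 single-gene fold changes, recomputed 1011 times, 10 values changed sign, none of them called. Between Model and Control these were Rpl22l1 with the loess trend on length removed (0.0199) or length offsets (0.00332) and Rpl7l1 with the choroid plexus score (0.0694). With single libraries left out, Rpl7l1 ran from -0.0691 to 0.0219 (positive without Control replicate 3, Model replicate 1 or Model replicate 3), Rps27l from -0.0305 (without Control replicate 4) to 0.156 and Rps4l from -0.0433 (without Control replicate 3) to 0.208. Rps4l also turned without both Treatment replicates, to -0.18 against Model and -0.10 against Control. Rpsa, whose sign turned with length offsets in both comparisons with Treatment, was not among the 34 fold changes. Another 98 values of called genes lost their call, and 21 values of genes not called in the main fit gained one. Depth limits statements on Rpl3l, Rpl39l and Rpl10l.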
